A study of Mus musculus with 8 samples.

Results

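At 4 mouse loci, those of Nf2, Spns3, Slc30a5 and Ywhah, 1 strongly accessible site of untreated pre-B cells stood between percentiles 5.9 and 31.2 of its peak list 2 h after Ikaros (IKZF1) was induced to enter the nucleus, while the main start site of each gene stayed accessible. The peaks described are those whose summit lay in the body of 1 of these genes or within 50 kb of it, and there were 600 of them among the 767727 peaks of all 8 libraries. Overlapping peaks were merged into regions, which gave 113 of 174718, with 28 at Nf2, 35 at Spns3, 34 at Slc30a5 and 16 at Ywhah. The 4 genes were chosen on these same data, by the size of the difference between 0 h and 2 h at 1 site each. That difference is therefore described here without a test, and tests are kept for the other sites and for the comparison of 30 min with 1 h.

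ATAC-seq reads accessibility with Tn5, a transposase that cuts open DNA and leaves sequencing adapters there. The B3 line comes from a mouse lymphoma and resembles pre-B cells, and the cells of all groups carried Ikaros-ERt2, IKZF1 joined to a hormone-binding domain that keeps it out of the nucleus until 4-hydroxytamoxifen (4-OHT) is added; per the methods, B3 constructs were delivered by retrovirus and cells sorted as a GFP-positive pool. Cells had no treatment (0 h) or 30 min, 1 h or 2 h of 4-OHT at 500 nM, and each of the 4 time points has 2 libraries. The 0 h cells had no vehicle, so an effect of 4-OHT or of its solvent cannot be told apart from one of IKZF1, and nothing states that the 2 libraries of a time point came from separate cultures, so p-values measure only the spread between these samples. Of 10 B-lineage genes, 7 had a peak within 1 kb of a start site in all 8 lists, and of 10 genes of other lineages 0 had one in all lists and 8 had one in none.

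IKZF1 is a zinc finger protein that binds DNA words built on GGAA or GGGA and is known in B-cell progenitors for recruiting corepressors such as the NuRD remodelling and deacetylase complex. The 4 genes belong to different pathways. Nf2 encodes merlin, a membrane-associated tumour suppressor upstream of the Hippo kinases. Spns3 belongs to the spinster family of membrane transporters, whose member Spns2 exports sphingosine-1-phosphate. Slc30a5 encodes a zinc transporter of the secretory pathway, and Ywhah encodes the eta form of the 14-3-3 proteins, which bind phosphorylated partners.

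The site that closed is called the closing region of its locus. It was in an intron of Nf2 (chr11:4784610-4784982), in a coding exon of Spns3 (chr11:72538228-72538470), in an intron of Slc30a5 (chr13:100809944-100810265), and between genes, 8853 bp from the start site of Ywhah (chr5:33009792-33010081), all on GRCm38. None was at a start site. The 200 bp around the summit of each in the first 0 h library are printed because they carry the words that IKZF1 binds, in capitals (GGAA, GGGA and their reverse complements, with overlapping words run together). The sequences are from the plus strand of GRCm38. The Nf2 window is chr11:4784715-4784914, the Spns3 window chr11:72538226-72538425, the Slc30a5 window chr13:100810051-100810250 and the Ywhah window chr5:33009863-33010062.
Nf2 closing region: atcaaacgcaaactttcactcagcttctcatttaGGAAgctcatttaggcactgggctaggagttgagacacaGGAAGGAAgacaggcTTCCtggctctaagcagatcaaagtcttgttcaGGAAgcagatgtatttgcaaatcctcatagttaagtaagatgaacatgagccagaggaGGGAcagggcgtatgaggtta
Spns3 closing region: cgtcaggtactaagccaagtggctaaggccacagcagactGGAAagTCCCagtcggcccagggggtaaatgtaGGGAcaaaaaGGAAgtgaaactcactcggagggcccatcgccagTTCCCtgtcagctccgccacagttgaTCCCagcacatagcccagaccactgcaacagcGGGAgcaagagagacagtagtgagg
Slc30a5 closing region: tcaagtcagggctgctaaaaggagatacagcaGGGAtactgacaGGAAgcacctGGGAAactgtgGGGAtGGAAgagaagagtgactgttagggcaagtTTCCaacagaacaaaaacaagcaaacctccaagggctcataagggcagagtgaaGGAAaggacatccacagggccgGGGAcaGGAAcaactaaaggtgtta
Ywhah closing region: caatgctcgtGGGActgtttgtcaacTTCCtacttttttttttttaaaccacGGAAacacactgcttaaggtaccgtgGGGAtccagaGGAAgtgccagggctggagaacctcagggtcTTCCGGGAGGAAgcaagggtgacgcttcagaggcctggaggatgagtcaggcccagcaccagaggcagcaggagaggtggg

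Counting overlapping words separately, the Nf2 window held 6 core words, Spns3 8, Slc30a5 10 and Ywhah 8. The median over the 47875 regions present in all 8 lists was 4, as it was over the 41 such neighbours in the 4 loci, which ranged from 1 to 14. As many words or more were in 29.0% of all those regions for the Nf2 window, 10.1% for Spns3 and Ywhah, and 2.73% for Slc30a5, so the Nf2 window was not unusual in this count. Among the 41 neighbours, 11 had 6 words or more. The GC content of the 4 windows was 45%, 57%, 49.5% and 55%, against a median of 51.5% over all those regions. In the Ywhah window, 3 of the words stand end to end as TTCCGGGAGGAA. The longer word TGGGAA, on either strand, was in the Slc30a5 window alone of the 4, and in 14.3% of all those regions. The EBF word, the RUNX word TGTGGT, the E-box CAGCTG and the CTCF word were in none of the 4 windows, and in 2.15%, 23.3%, 17% and 9.01% of all those regions. These matches, searched on both strands, describe letters and not binding.

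**Figure D1:**
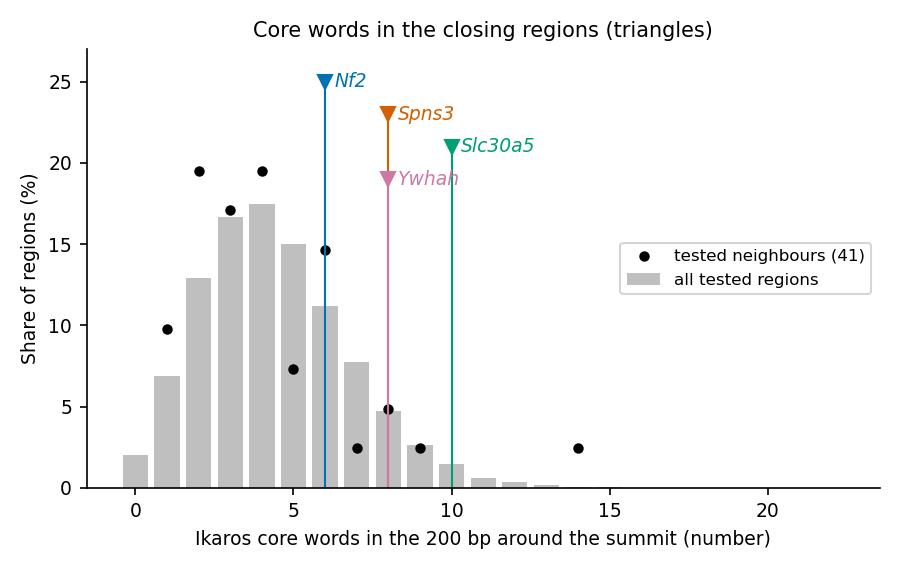
Number of core words in the 200 bp around the summit (x axis) against the share of regions in percent (y axis), with bars for all 47875 regions present in all 8 lists, points for the 41 neighbours and triangles for the 4 closing regions, whose height has no meaning. The closing regions sit at 6, 8, 8 and 10 words, above the median of 4.

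Folds of different lists share no common scale, so strength was compared as a percentile. It is the rank of a peak by fold over background among all peaks of its list, in percent, with ties at their mean rank. The number of fragments over the summit was recovered from the fold and p-value of each peak. Lists held 85903 to 103897 peaks, with a median of 11 to 14 fragments at the summit and a background of 0.26 (second 0 h library) to 0.405 (first 30 min library) fragments per base. The smallest peak of a list had 3 or 4 fragments.

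The closing region in the intron of Nf2 stood at percentiles 98.5 and 97.6 in the 2 libraries of 0 h, then 64.4 and 50.9 after 30 min, 17.9 and 35.6 after 1 h, and 10.6 and 18.8 after 2 h. Its summit held 70 and 52 fragments at 0 h (95% Poisson intervals 54.6 to 88.4 and 38.8 to 68.2), then 14 and 11 after 30 min, 6 and 8 after 1 h, and 5 and 6 after 2 h (1.62 to 11.7 and 2.2 to 13.1). Intervals cover counting error only, since PCR copies are not independent molecules. Every treated library lay below both 0 h libraries, and the 2 h libraries were close to the smallest peaks of their lists, which had 4 fragments.

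The closing region in the Spns3 exon stood at percentiles 98.8 and 97.5 at 0 h, then 65.9 and 64.1 after 30 min, 52.8 and 57.3 after 1 h, and 8.1 and 31.2 after 2 h. Its fragments were 55 and 42 at 0 h, then 13 and 12 after 30 min, 10 and 11 after 1 h, and 5 and 7 after 2 h. In percentile, the 2 h libraries differed by more than those of any other time here, and both lay below all others.

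The closing region in the Slc30a5 intron stood at percentiles 98.2 and 95.6 at 0 h, then 55.3 and 37.6 after 30 min, 50.7 and 25.1 after 1 h, and 8.1 and 25.6 after 2 h. Its fragments were 69 and 48, then 13 and 9, 11 and 7, and 6 and 7 in the same order. The first library lay above the second at 0 h, 30 min and 1 h and below it at 2 h, and the second libraries of 1 h and 2 h were almost level in percentile.

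The closing region beside Ywhah stood at percentiles 97.7 and 95.5 at 0 h, then 68.6 and 63.0 after 30 min, 45.8 and 53.5 after 1 h, and 5.9 and 18.2 after 2 h. Its fragments were 66 and 43 at 0 h, then 18 and 15 after 30 min, 11 and 13 after 1 h, and 6 and 7 after 2 h. The time points did not overlap in percentile at this site.

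**Figure D2:**
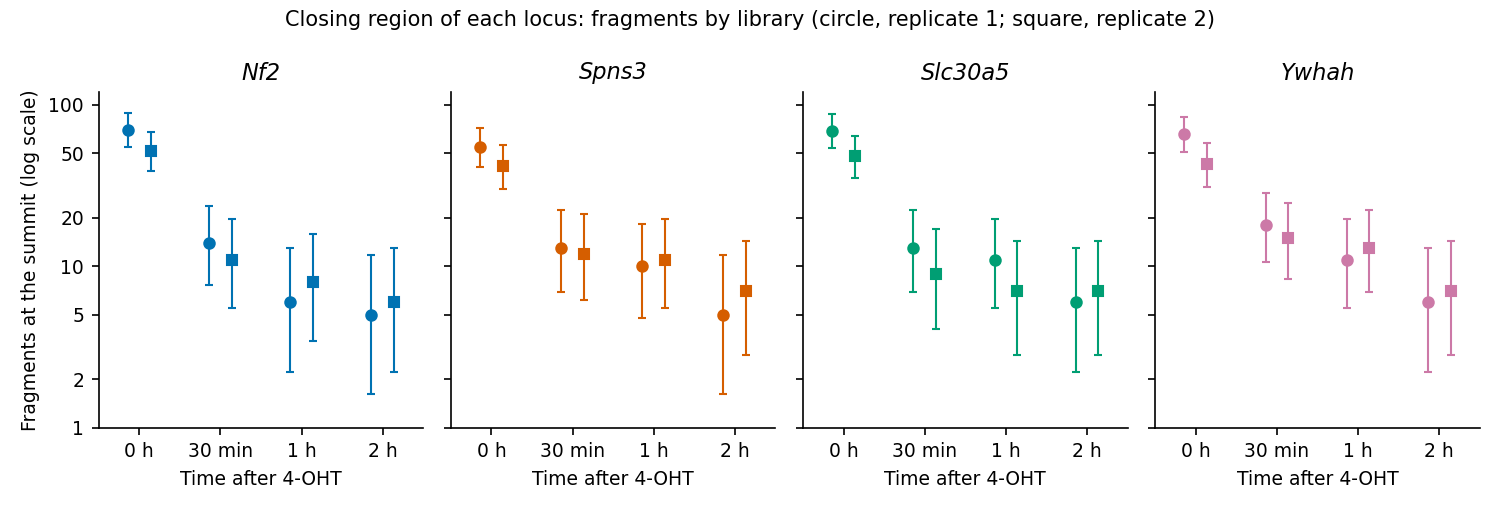
Fragments at the summit of each closing region (y axis, log scale) at each time after 4-OHT (x axis), circles for replicate 1 and squares for replicate 2, with 95% Poisson intervals as bars. All 4 sites held 42 to 70 fragments at 0 h, 9 to 18 at 30 min and 5 to 7 at 2 h.

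Most of the fragments over background were gone by 30 min at each of the 4 sites. Divided by the background of their library and averaged over the 2 libraries, the fragments at 30 min were 18.6% of the 0 h value at Nf2, 23.6% at Spns3, 17% at Slc30a5 and 27.9% at Ywhah. They were 11.1%, 20.7%, 14.5% and 21.4% after 1 h, and 8.89%, 12.2%, 11% and 11.9% after 2 h. The peaks were also narrower, from 373 and 316 bp at 0 h to 67 and 107 bp at 2 h at Nf2, from 209 and 243 bp to 113 and 95 bp at Spns3, from 322 and 267 bp to 97 and 166 bp at Slc30a5, and from 290 and 283 bp to 70 and 83 bp at Ywhah. A weaker pileup crosses the caller's threshold over a shorter stretch, so width and fragments are not separate measurements. These differences chose the loci and are given without a test.

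Within its own locus, the closing region beside Ywhah ranked 1 of 11 and 1 of 10 regions by fold in the 0 h libraries, and 10 of 10 and 8 of 9 at 2 h. That of Nf2 ranked 1 of 16 and 2 of 15 at 0 h, and 19 of 20 and 20 of 21 at 2 h. That of Spns3 ranked 1 of 26 and 1 of 21, and then 18 of 19 and 11 of 20. That of Slc30a5 ranked 3 of 22 and 4 of 22 at 0 h, and 24 of 26 and 16 of 19 at 2 h. The fall in mean percentile was 83.4 points at Nf2, 78.4 at Spns3, 80.0 at Slc30a5 and 84.5 at Ywhah. The next largest fall was taken among the other regions with a peak in all 8 lists, which did not choose the locus. It was 12.5 points at Nf2, 45.2 at Spns3, 11.3 at Slc30a5 and 4.42 at Ywhah. Each of these falls is smaller by definition, since the closing region is the largest fall among such regions of its locus. Regions with a peak in both 0 h lists and none at 2 h have no 2 h percentile. They were not ranked and could have fallen further, with 6 at Spns3, 3 at Slc30a5, 2 at Ywhah and 0 at Nf2.

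Whether the sites went on closing between 30 min and 1 h was tested, since the values of neither time point chose the loci. Closing regions had to have a peak in every list, so a site without a peak at 1 h could not be among them. That condition limits how low their 1 h values could be. The limma fit ran on normal scores of the rank within each list over all 47875 regions. None of the 4 closing regions (0 of 4) was lower at 1 h at an adjusted p under 0.01, and neither was any of the 47875 (0%). The score of the Nf2 region was lower by 1.04 (SE 0.318), with an adjusted p of 0.287. The differences were -0.61 (SE 0.308) at Ywhah, -0.39 (SE 0.330) at Spns3 and -0.28 (SE 0.345) at Slc30a5, with adjusted p of 0.496, 0.696 and 0.806. Only the Nf2 region had an unadjusted p under 0.05 (0.00822), against 5.89% of all regions tested that were lower by that rule. With 2 libraries a time point, no further step was detectable at these sites.

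The main start sites of the 4 genes ended in the upper part of their lists, and none passed the threshold at 2 h. The region at the Nf2 start site (chr11:4849364-4849802), 64.8 kb from the closing region, stood at percentiles 97.7 and 98.1 at 0 h, then 95.8 and 94.3 after 30 min, 91.0 and 94.6 after 1 h, and 93.3 and 92.5 after 2 h. Its fragments were 86 and 68 at 0 h, against 50 and 44 after 2 h. Both 2 h libraries lay below both 0 h libraries in percentile, with a limma adjusted p of 0.0789, which missed the threshold of 0.01.

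The region at the Spns3 start site (chr11:72550159-72550551), 11.9 kb from the closing exon, stood at percentiles 65.7 and 66.4 at 0 h, then 87.1 and 83.6 after 30 min, 82.7 and 77.1 after 1 h, and 82.7 and 75.3 after 2 h. All treated libraries lay above those of 0 h in percentile, and the adjusted p for 2 h was 0.360. A second region 335 bp from that start site had a peak in 1 list of 1 h and 1 of 2 h, at percentiles 1.2 and 0.060.

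The main region at the Slc30a5 start site (chr13:100833170-100833676) stood at percentiles 91.0 and 95.2 at 0 h, against 92.8 and 89.3 after 2 h, which overlapped, with an adjusted p of 0.581. A weaker one just inside the gene (chr13:100832227-100832439) stood at 34.3 and 6.3 at 0 h, then 71.7 and 66.5 after 30 min, and 68.7 and 72.6 at 2 h. All its treated libraries lay above those of 0 h, with an adjusted p of 0.0108 at 2 h, just outside the threshold. Between these a weak region had peaks in the 0 h lists alone, with 17 and 13 fragments, at percentiles 7.8 and 16.9.

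The region at the Ywhah start site (chr5:33018541-33019078), 8.72 kb from the closing region, stood at percentiles 78.4 and 89.2 at 0 h, then 64.9 and 65.9 after 30 min, 76.8 and 89.9 after 1 h, and 88.1 and 84.5 after 2 h. Its 0 h and 2 h libraries overlapped, with an adjusted p of 0.998. A second region 423 bp from that start site had peaks in both 30 min lists, 1 list of 1 h and 1 of 2 h, with 7 to 16 fragments.

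**Figure D3:**
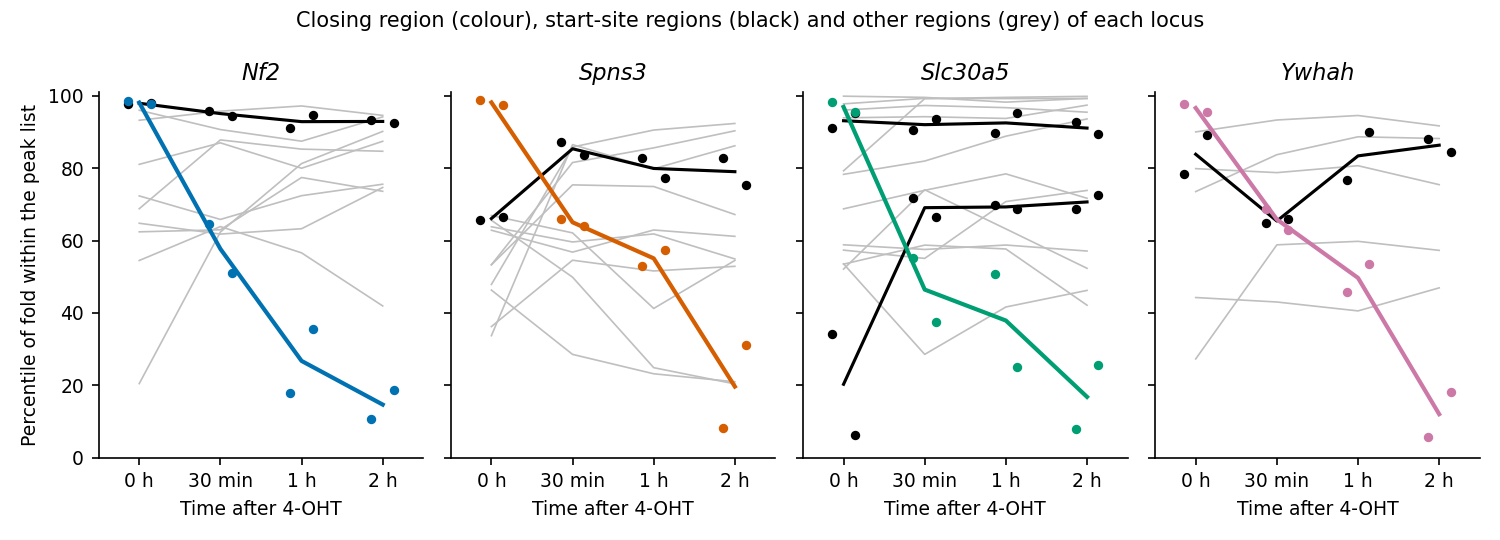
Percentile of fold within the peak list (y axis) at each time after 4-OHT (x axis) for regions present in all 8 lists, 1 panel for each locus, with lines through the means of 2 libraries and points for single libraries of the closing region (colour) and the start-site regions (black), other regions in grey. The closing region starts above 95 and ends below 32 in each panel, while the main start-site regions end at 75.3 or higher.

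Of the 109 regions in the 4 loci other than the closing ones, start sites included, 41 had a peak in all 8 lists and could be tested at 2 h against 0 h, 10 at Nf2, 11 at Spns3, 14 at Slc30a5 and 6 at Ywhah. By limma at an adjusted p under 0.01, 0 of the 41 were lower, where 4.71% of all regions tested were, and 2 were higher, where 2.28% were. At an unadjusted p under 0.05, 4 of the 41 were lower and 8 higher, where 17.4% and 17.1% of all regions tested were. The closing regions, chosen as the largest falls on this same contrast, were left out of the 41. The shares over all regions tested kept their largest falls, so the comparison of lower regions is not like for like. The median change in mean percentile was 2.67 points over the 41 and 3.66 points over all regions tested, and 15 were lower and 26 higher in mean percentile, between -45.2 and 69.6 points. The remaining 68 regions lacked a peak in at least 1 list, and 18 of the 109 had a peak in a single list. A region that lost its peak by 2 h could thus not be among the 41, nor among all regions tested. The count of 0 lower therefore covers only neighbours that kept a peak throughout. With regions in at least 2 lists, 3 of 91 neighbours were lower, where 6.27% of all regions tested in that way were.

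Both higher neighbours were in introns. One was in Slc30a5 itself (chr13:100815596-100815845), 5.56 kb from the closing region and its nearest tested neighbour on that side. It stood at percentiles 88.2 and 70.2 at 0 h, then 99.1 and 99.2 after 30 min, 99.4 and 99.7 after 1 h, and 99.7 and 99.9 after 2 h. Its fragments went from 28 and 15 at 0 h to 61 and 54 at 30 min and 76 and 82 at 2 h. All treated libraries lay above both 0 h libraries, with an adjusted p of 0.00195 at 2 h. The closing region and this one, both in Slc30a5, thus lay on opposite sides of their 0 h values at every later time.

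The other was in an intron of Spns2 (chr11:72466388-72466607), the gene beside Spns3, 71.8 kb from the Spns3 closing region. It stood at percentiles 47.8 and 48.0 at 0 h, then 86.8 and 84.8 after 30 min, 91.4 and 89.6 after 1 h, and 90.0 and 94.6 after 2 h. Its fragments were 20 and 16 at 0 h, against 54 and 55 after 2 h. Libraries with and without 4-OHT did not overlap, with an adjusted p of 0.00252 at 2 h. In the same intron, a region within 1 kb of it (chr11:72467116-72467286) stood at 74.5 and 56.7 at 0 h, against 34.2 and 6.6 after 2 h, with an adjusted p of 0.0122, the smallest among neighbours that stood lower at 2 h.

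The windows of both higher neighbours, and that of the strongest neighbour at 0 h, which is described next, are shown for comparison with the closing windows. They are chr11:72466422-72466621, chr13:100815615-100815814 and chr13:100824427-100824626, on the plus strand, with the same words in capitals. Each held 4 core words, the median of all regions tested, and 61.5% of all regions tested held as many or more. The Spns2 window also held the RUNX word, the Slc30a5 window higher at 2 h the EBF word, and the strongest neighbour TGGGAA. These words were in 23.3%, 2.15% and 14.3% of all regions tested.
Spns2 intron, higher at 2 h: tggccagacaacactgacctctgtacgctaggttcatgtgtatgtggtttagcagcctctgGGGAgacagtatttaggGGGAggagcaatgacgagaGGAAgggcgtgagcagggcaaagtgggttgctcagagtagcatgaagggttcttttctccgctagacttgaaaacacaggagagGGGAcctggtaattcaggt
Slc30a5 intron, higher at 2 h: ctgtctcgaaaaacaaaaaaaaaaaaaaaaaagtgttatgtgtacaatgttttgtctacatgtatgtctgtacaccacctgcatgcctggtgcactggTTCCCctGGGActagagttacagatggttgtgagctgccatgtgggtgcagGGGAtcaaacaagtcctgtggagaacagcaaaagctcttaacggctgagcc
Slc30a5 intron, strongest at 0 h: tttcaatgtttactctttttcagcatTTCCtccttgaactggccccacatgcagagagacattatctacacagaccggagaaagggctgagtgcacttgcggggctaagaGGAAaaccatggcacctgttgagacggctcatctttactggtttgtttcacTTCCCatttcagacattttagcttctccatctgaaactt

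The strongest neighbours at Slc30a5 were above percentile 95 at both 0 h and 2 h. The strongest, in another intron of the gene and 14.4 kb from the closing region (chr13:100824347-100824836), stood at percentiles 99.8 and 99.9 at 0 h, against 99.0 and 99.4 after 2 h, with 125 and 113 fragments and then 94 and 94. Its adjusted p was 0.154. A region in an intron of the predicted gene Gm29502, 56.4 kb away, stood at 98.3 and 97.2 at 0 h and 99.2 in both libraries at 2 h. The start site of Cenph, a kinetochore gene, stood at 96.0 in both libraries at 0 h, against 95.2 and 95.6 after 2 h. The start site of Ccnb1, which encodes cyclin B1 and holds the nearest tested neighbour on the other side, stood at 95.9 and 91.9 at 0 h, against 96.7 and 98.0 after 2 h. Apart from the start-site region above, the 2 weakest tested neighbours at 0 h were in Cenph and Ccnb1 introns, at means of 52.1 and 53.5 at 0 h, against 52.3 and 42.1 after 2 h. None of these passed the threshold, nor did any other tested neighbour at Slc30a5 besides the intronic one that rose.

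Apart from the Nf2 start site, the strongest tested neighbours at Nf2 were the start sites of Thoc5, a gene of the THO mRNA export complex, and of Nipsnap1. The Thoc5 region stood at percentiles 96.2 and 95.7 at 0 h, against 94.4 and 93.9 after 2 h, and the Nipsnap1 region at 94.7 and 91.7 and then 96.5 and 92.6. The next, in an Nf2 intron, stood at 85.6 and 76.4 and then 94.5 and 80.3. The nearest tested neighbours were far off, 34.3 kb on one side (means 72.3 at 0 h and 75.5 at 2 h) and 36.9 kb on the other (64.8 and 74.6). The weakest at 0 h, in an intron of Zmat5 (chr11:4736463-4736660), stood at 0.8 and 40.2 at 0 h, against 87.3 and 93.0 after 2 h, with 4 and 8 fragments and then 27 and 30. The 2 h libraries lay far above those of 0 h, but the 0 h libraries differed widely and the adjusted p was 0.0142. The other weakest one, in an Nf2 intron, had means of 54.5 at 0 h and 41.9 at 2 h.

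At Spns3 the tested neighbours were of middling strength, since the 3 highest at 0 h, apart from the Spns3 start site, had mean percentiles of only 66.9, 65.6 and 63.8. The first of these, 1303 bp from the Spns3 start site, stood at 65.9 and 67.9 at 0 h, against 52.6 and 56.4 after 2 h, with an adjusted p of 0.107. The second is the Spns2 region with the near call described above, and the third, in an intron of Mybbp1a, stood at 69.1 and 58.5 and then 42.2 and 67.6. The 2 weakest stood at 56.9 and 10.6 at 0 h, against 86.1 and 86.2 after 2 h (11.1 kb from a start site of Ube2g1, adjusted p 0.0156), and at 57.8 and 14.7 and then 63.5 and 42.3 (in an intron of Spns2, the nearest tested neighbour on that side of the closing exon, 60.6 kb away).

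Near Ywhah, the 3 strongest tested neighbours apart from its start site had mean percentiles of 90.0, 79.8 and 73.5 at 0 h, against 91.6, 75.4 and 88.2 after 2 h. The nearest on one side, 4.36 kb from the closing region, was the weakest at 0 h, at 37.9 and 16.7, and stood at 55.4 and 59.1 at 2 h, with an adjusted p of 0.135. The next weakest had means of 44.3 at 0 h and 46.9 at 2 h. The nearest tested site on the other side was the Ywhah start site.

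**Figure D4:**
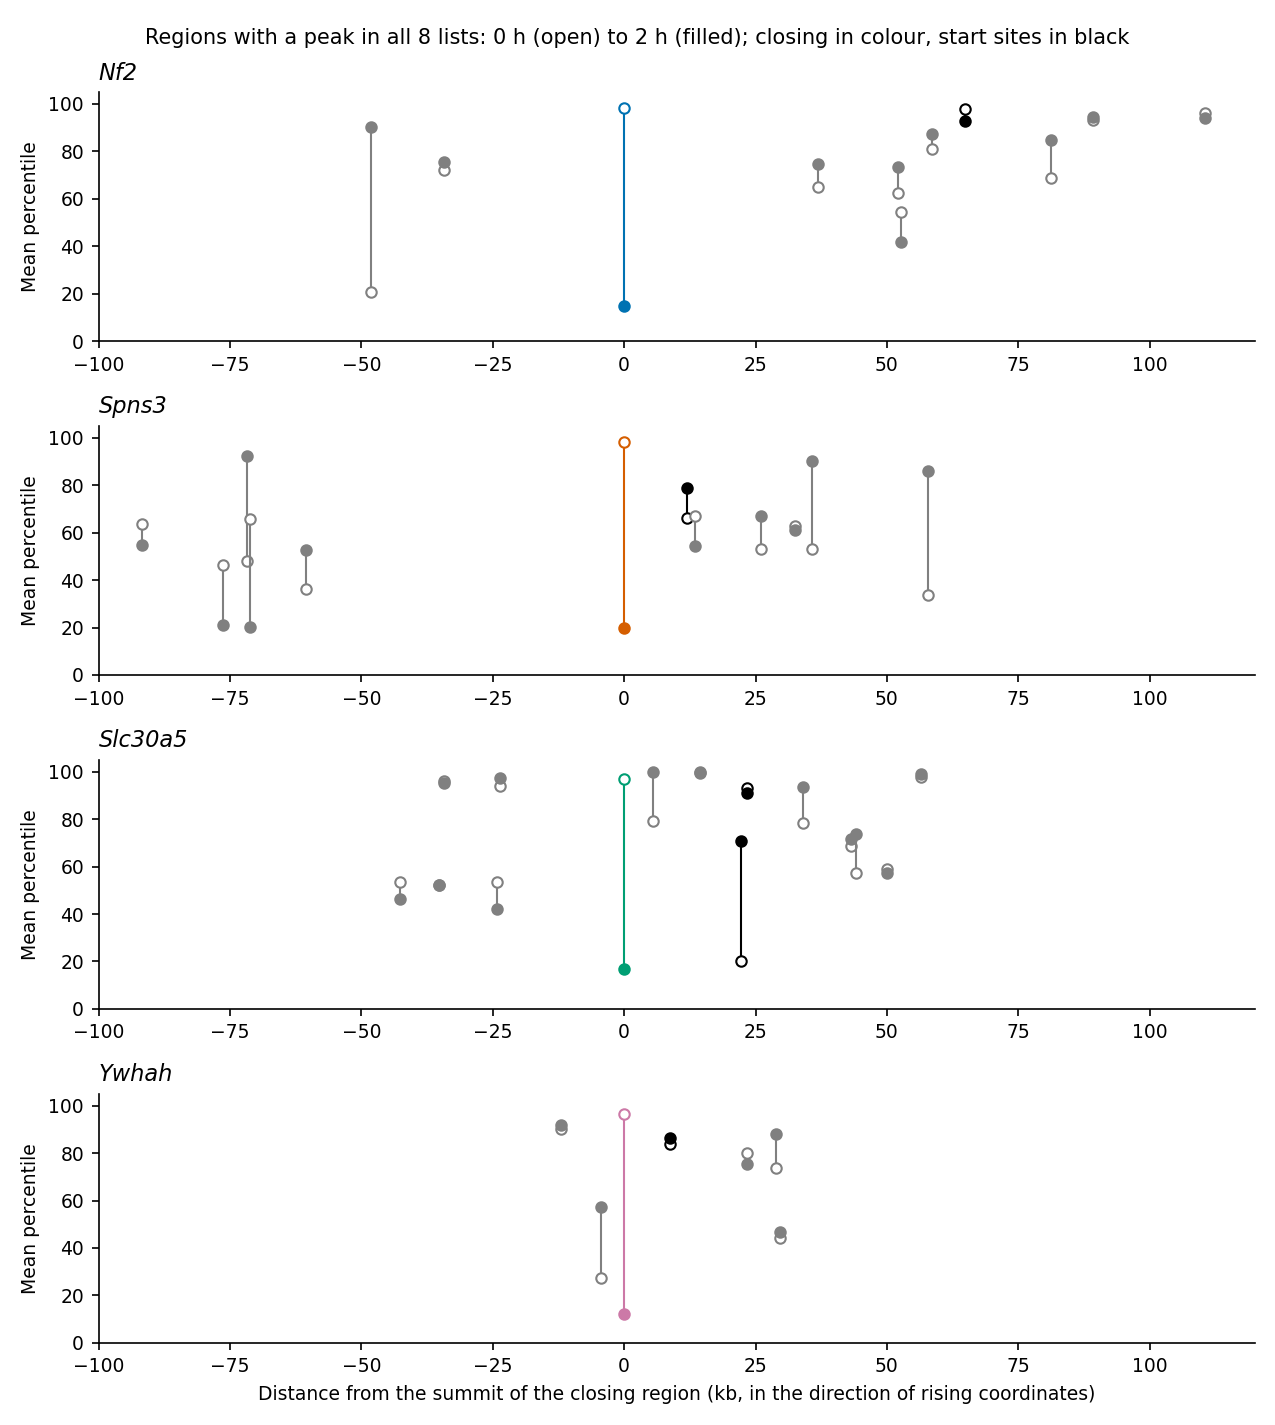
Mean percentile of 2 libraries (y axis) against distance in kb from the summit of the closing region (x axis) for regions present in all 8 lists, open circles for 0 h and filled circles for 2 h joined by a line, with 1 panel a locus, closing regions in colour, start sites in black and other regions in grey. The lines of the closing regions run down from above 96 to below 20, and the longest other downward line is 45.2 points, at Spns3.

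Regions that were present at one time and absent at the other were counted among those with a peak in both libraries of a time point. Of 55 neighbours with a peak in both 0 h lists, 11 had none in either 2 h list, where 16.6% of all such regions did. They were 6 of 18 at Spns3, 3 of 17 at Slc30a5, 2 of 8 at Ywhah and 0 of 12 at Nf2. Of 57 with a peak in both 2 h lists, 8 had none at 0 h, where 20.5% of all such regions did, and 5 of these 8 were among 17 at Nf2. The lost regions of the greatest strength were in introns of Spns2, with percentiles 50.6 and 52.4, 44.4 and 61.7, and 68.8 and 39.2 at 0 h. The first had 19 and 16 fragments and the second 12 and 12, and neither had a peak in any treated list. The gained regions of the greatest strength were in introns of Nf2. One, 46.5 kb from the closing region, stood at 72.6 and 33.5 at 2 h with 15 and 7 fragments, and the other, 11.7 kb from it, stood at 69.7 and 33.5 with 14 and 7 fragments.

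**Figure D5:**
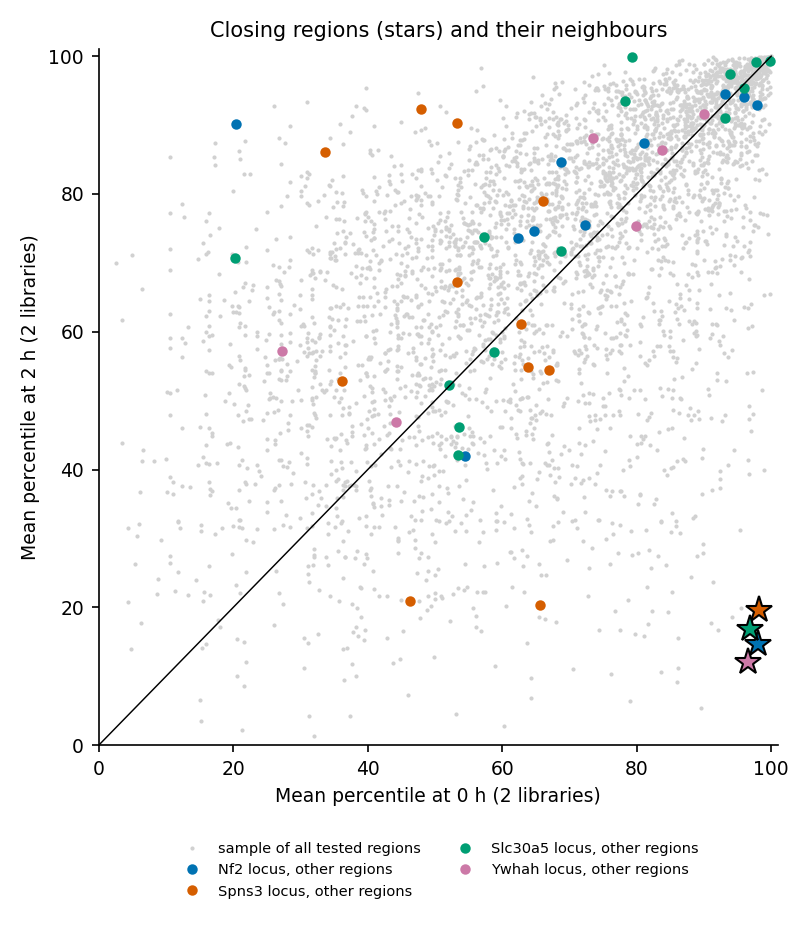
Mean percentile of 2 libraries at 0 h (x axis) and at 2 h (y axis) for tested regions of the 4 loci, those present in all 8 lists, with stars for closing regions and circles for the others, over a sample of all regions tested in grey, with the line of equality. The 4 stars lie together at the lower right, between 96.6 and 98.1 at 0 h and between 12.1 and 19.7 at 2 h. They lie apart from their neighbours, having been chosen as the largest fall of each locus.

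Genes of the same families were counted by regions within their bodies or 5 kb around, the 4 closing regions left out. The shares over all regions tested leave out none of those regions. Tested regions had a peak in all 8 lists, so a region that lost its peak could not count as lower here. Around the 7 genes of the 14-3-3 proteins, 0 of 15 tested regions were lower or higher at an adjusted p under 0.01. Around 10 zinc transporter genes of the SLC30 family 0 of 16 were lower and 1 was higher, the Slc30a5 intron above, and around the 3 spinster genes 0 of 10 were lower and 1 was higher, the Spns2 intron above. Around 21 genes of the Hippo pathway, Nf2 included, 7 of 69 regions (10.1%) were lower and 1 was higher, against the 4.71% and 2.28% of all regions tested, with a median change of -0.54 points. The 7 lower regions were in introns, 3 in Amotl1, which encodes an angiomotin family scaffold, and 1 each in Wwc1, Wwc2, Lats2 and Stk3. The largest of these falls was in Amotl1 (chr9:14641735-14641951), from a mean percentile of 67.4 ± 6.8 to 15.0 ± 15.0 (SD, n = 2), with an adjusted p of 0.00392. Stk3, a Hippo kinase gene, had 1 lower region among 8, from 89.1 ± 0.90 to 60.2 ± 4.8 (adjusted p 0.00859). Regions of one gene share their locus, and no test was made of the lists.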

How the data were processed

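Per the sources, the authors demultiplexed with bcl2fastq 2.20.0, aligned with BWA 0.7.17, shifted read ends for the Tn5 offset and kept fragments up to 120 bp with deepTools 2.3.5, and called peaks with MACS2 2.1.2 on each library alone. The methods name a human genome, but every peak, on 21 chromosomes, fits within mouse GRCm38, the build in the processing notes. The deposited lists give each peak's fold over background as a ratio, its −log10 p-value and −log10 q-value, and its summit offset, which is a position and no measurement. These steps suit the assay. Read counts over common regions were not analysed here, and the fit was on ranks.

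Whole fragments at the summit and the background were recovered from the fold and p-value of each peak under the caller's Poisson model, to within 0.001 on the −log10 scale for 100% of peaks. Overlapping peaks were merged into regions with Python 3.11.15 and pandas 2.3.3. In each list, the 47875 regions present in all 8 lists took the rank of their top fold as a normal score, which limma 3.58.1 in R 4.3.3 modelled over the 4 time points, with Benjamini-Hochberg adjustment over all of them. Ranks are relative, so a region can rise because others fall. The fit was tested on simulated data. GENCODE M21 gave genes and start sites, and a start-site region lay within 1 kb of one. The closing region of a locus is the tested region with the largest fall in mean percentile from 0 h to 2 h.

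The 4 genes and all lists were chosen with earlier results of these data known. The regions named for each locus were the closing one, those at a start site of the gene, any other past the threshold, the 3 strongest and 2 weakest neighbours at 0 h, the nearest on either side, and lost or gained ones over percentile 50. Regions named because their adjusted p came close to the threshold were chosen after their values were seen. Alternatives were other rankings, the recovered fragments, other region definitions, thresholds and flanks, a replicate block and leaving out each library.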

Additional observations from a re-analysis of the deposited data

How the results depend on the processing

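The number of neighbours lower at 2 h was 0 of 41 at the main setting. The closing regions were left out of these counts but not of the shares over all regions tested. It was 1 with recovered fragments over background centred within each library (the Nf2 start site), where 9.37% of all regions tested were lower, 3 of 91 with regions in at least 2 lists (in introns of Spns2 and Spns3, with no peak after treatment), where 6.27% were, and 2 at an adjusted p under 0.05, where 11.1% were. The number higher was 2 and moved to 6 with recovered fragments (7.87% of all regions tested), the same centred (5.43%), a mean trend and robust prior (4.71%) and an adjusted p under 0.05 (8.34%). It was 1 of 24 within 20 kb, where the Spns2 region falls outside. Leaving out 1 library gave 0 lower throughout and 0 to 3 higher. Without a library of 0 h or 2 h, fewer of all regions tested were called, 0.38% to 0.62% lower and 0.0355% to 0.487% higher. Without either 2 h replicate 0 neighbours were higher (0.0961% and 0.0355% of all regions), without the second 0 h replicate 1 was (0.246%), the Zmat5 intron in place of the main 2, and without the first 0 h replicate 3 were (0.487%), the Slc30a5 intron among them but not that of Spns2. With a lone library at a time point, its spread is assumed to be that of the others. With the replicate block the counts were 0 lower and 2 higher, the same 2 regions. Deviations of same-numbered libraries correlated at 0.017 to 0.040 between time points. These were taken on rank scores, which remove differences that a whole library shares. Replicate 1 had more peaks and a higher background than replicate 2 at every time point. Whether the replicate numbers pair the samples is therefore not settled.

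No closing region was lower at 1 h than at 30 min in any fit that held them, the replicate block included, with 0 in each fit that left out 1 library. With a −log10 q of at least 5 no closing region had a peak in all 8 lists, so that setting gave no value for them. The fall of the closing regions lay between 66.9 and 94.0 points over all settings, with -94.0 at Nf2 when ranked among regions with a peak in all 8 lists, and between -87.5 and -79.3 (Nf2), -90.0 and -66.9 (Spns3), -88.8 and -71.3 (Slc30a5) and -90.7 and -78.3 (Ywhah) without 1 library. The change of the Nf2 start site moved from -5.02 points to -11.0 when ranked among those regions and to -6.49 with the stricter q-value, and lay between -5.42 and -4.62 without 1 library. That of Spns3 moved from 12.9 to 18.3 points with the stricter q-value and lay between 9.20 and 16.7 without 1 library. That of Slc30a5 (-2.03 points) reversed to 0.96 when ranked by p-value and lay between -4.13 and 0.069 without 1 library. That of Ywhah (2.51 points) lay between -2.91 and 7.94, and was reversed without the first 0 h replicate. The cause of these moves was not tested. Depth limits the 2 h values, since 5 to 7 fragments are near the smallest peak a list holds.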
